A study of Homo sapiens with 6 samples.

Results

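The insulin-like growth factor (IGF) system was followed through 10 genes in HK-2 cells, an immortalized human proximal tubular epithelial line. The genes were the rows of the expression table named IGFBP1 to IGFBP6, IGF1R, IGF2R, IRS1 and IRS2, which are 10 of 58825 rows in all. The comparison was between 3 Control libraries, from untreated cultures, and 3 OX-LDL libraries, from cultures given 25 μg/ml oxidized low-density lipoprotein for 48 h to model lipid injury of the tubule. The study's methods place a period of serum starvation before the treatment, and serum carries IGFs and IGFBPs of its own. No vehicle was named for the Control cultures, and the cells are 1 line without a wild-type or donor comparison. RNA was measured here, not the secreted proteins.

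IGF1 and IGF2 are growth factors that circulate and act locally. IGF1R is the tyrosine kinase receptor through which both signal, and it passes the signal by way of the adaptors IRS1 and IRS2 to PI3K and AKT. IGF2R, the mannose 6-phosphate receptor, carries lysosomal enzymes and takes up IGF2 for degradation without a kinase of its own. The 6 IGFBPs are secreted proteins that hold IGFs away from IGF1R or deliver them, and proteases such as PAPPA release the ligand by cutting IGFBPs.

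The 3 IGFBPs that were expressed all rose with OX-LDL and IGF2R fell. IGFBP3 rose 2.67-fold, IGFBP6 1.82-fold and IGFBP4 1.61-fold, whereas IGF2R fell to 0.754 of its Control level. Of the other members, IGF1R, IRS1 and IRS2 were expressed and did not pass the test, IGFBP1 was at the limit of detection, and IGFBP2 and IGFBP5 were not detected. A gene was tested if its mean was at least 0.1 FPKM (fragments scaled for transcript length and library size) over the 6 libraries, and it was called higher or lower at an adjusted p under 0.05 in edgeR's quasi-likelihood test. Of the 7 members tested, 3 were called higher and 1 lower. Over all 19510 genes tested, 7.91% were called higher and 7.42% lower. That background takes in weakly expressed genes, whereas the lowest of the 7 members, IRS1, averaged 4.03 FPKM. When genes under 1 FPKM were left out, calls in either direction came to 3152 of 12259 genes. This is a larger share than the 2991 of 19510 in the main test. The shares over all genes, here and beside the lists below, are therefore low for genes at the members' level. The members' median log2 fold change was 0.20, against -0.0043 over all genes tested.

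The promoters of the 4 members that passed the test are shown because their transcripts moved in the same comparison, the first 3 up and IGF2R down. Each line holds the 250 bases before the RefSeq start site on GRCh38.p14, 5′ to 3′ on the gene's strand. Capitals mark the GC box (GGGCGG, or CCGCCC on the other strand) and the TATA box (TATAAA). The windows were chr7:45921273-45921522 on the minus strand for IGFBP3, chr17:40443200-40443449 on the plus strand for IGFBP4, chr12:53097417-53097666 on the plus strand for IGFBP6 and chr6:159968832-159969081 on the plus strand for IGF2R.
IGFBP3: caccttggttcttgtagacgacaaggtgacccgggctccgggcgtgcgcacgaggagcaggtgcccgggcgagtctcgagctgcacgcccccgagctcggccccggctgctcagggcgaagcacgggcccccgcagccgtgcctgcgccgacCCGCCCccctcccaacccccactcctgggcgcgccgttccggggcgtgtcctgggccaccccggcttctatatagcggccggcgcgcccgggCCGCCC
IGFBP4: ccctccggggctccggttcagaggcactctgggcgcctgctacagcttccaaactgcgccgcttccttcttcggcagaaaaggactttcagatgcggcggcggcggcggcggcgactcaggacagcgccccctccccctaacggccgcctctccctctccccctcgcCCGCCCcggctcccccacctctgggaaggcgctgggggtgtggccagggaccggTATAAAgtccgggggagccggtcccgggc
IGFBP6: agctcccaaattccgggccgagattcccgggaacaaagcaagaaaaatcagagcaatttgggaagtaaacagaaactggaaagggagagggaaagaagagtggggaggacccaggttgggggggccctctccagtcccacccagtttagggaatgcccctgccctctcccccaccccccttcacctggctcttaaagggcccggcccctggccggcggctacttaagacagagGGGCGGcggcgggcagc
IGF2R: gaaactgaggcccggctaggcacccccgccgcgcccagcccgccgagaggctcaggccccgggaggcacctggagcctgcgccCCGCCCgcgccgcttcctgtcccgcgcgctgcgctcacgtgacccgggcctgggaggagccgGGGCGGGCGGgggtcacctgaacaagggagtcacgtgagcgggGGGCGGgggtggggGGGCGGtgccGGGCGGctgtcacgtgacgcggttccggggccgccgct

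All 4 windows held a GC box, a motif found in 42.6% of 35116 promoter windows of that length. IGF2R held 6 of them, IGFBP3 held 2, and IGFBP4 and IGFBP6 held 1 each. The windows of IGFBP2, IGF1R, IRS1 and IRS2, members that were not called, held a GC box as well. IGFBP4 alone among the 4 matched the exact TATA box motif TATAAA (first base at -29 from the start), which was present in 10.7% of all windows. Variants of it were not searched, and the IGFBP3 window holds the similar stretch TATATA near its start site. IGFBP6 held the forkhead motif GTAAACA, present in 2.98% of all windows, with its first base at -186 from the start. For IGFBP6 the RefSeq start lies 231 bases downstream of the start of the gene in the expression table, so this motif and most of the window lie inside the gene as measured here. For IGFBP3, IGFBP4 and IGF2R the 2 starts differed by at most 17 bases. Both strands were searched for every motif. An E-box (CANNTG), which 61.8% of all windows held, was present 5 times in IGF2R and once in each of the other 3. Neither the AP-1 motif TGANTCA, present in 6.57% of all windows, nor the ATF4 motif TGATGNAA, in 3.14%, matched any of the 9 members with a RefSeq promoter. The 9 windows had a median GC content of 71.6%, against 58% over all windows, and IGFBP1 had no entry.

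IGFBP3 (ENSG00000146674, chromosome 7, bases 45912245 to 45921274, minus strand), which carries most IGF in the circulation, was the member that changed most. Its level was 7.70, 5.77 and 8.53 FPKM in the Control libraries and 22.0, 13.7 and 22.0 FPKM in the OX-LDL libraries. The lowest OX-LDL library stood above the highest Control library. The mean went from 7.33 ± 1.41 to 19.2 ± 4.81 FPKM (SD, n = 3), with a log2 fold change of 1.42 (SE 0.23, adjusted p = 0.011). The 95% interval of the fold ran from 1.84 to 3.88. IGFBP3 was called whichever library was left out, and it was the only member past a fold of 2.

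**Figure D1:**
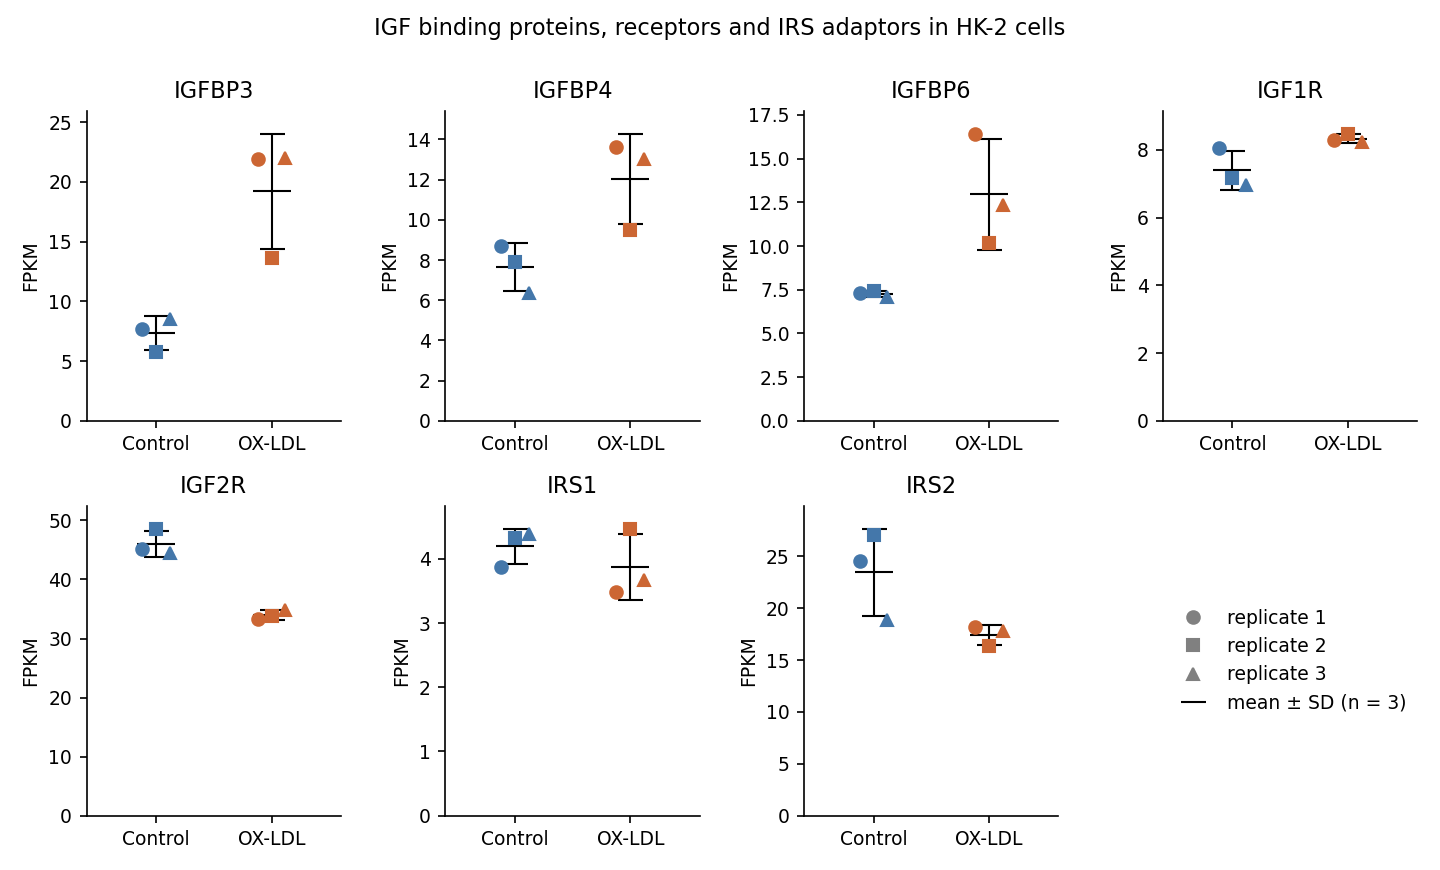
FPKM of the 7 tested members in each library, with Control in blue and OX-LDL in orange, marker shape for the replicate and bars for the mean ± SD (n = 3), on axes that start at 0. The 3 IGFBP panels show every OX-LDL library above every Control library with OX-LDL 2 the lowest of its group, and the IGF2R panel shows the OX-LDL libraries between 33.2 and 34.9 FPKM, all below Control.

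IGFBP6 (ENSG00000167779, chromosome 12, bases 53097436 to 53102345, plus strand) binds IGF2 in preference to IGF1. It stood at 7.32, 7.42 and 7.08 FPKM in Control and at 16.4, 10.2 and 12.4 FPKM in OX-LDL. The Control libraries lay close together, while the OX-LDL libraries were higher and more spread. The mean went from 7.27 ± 0.174 to 13.0 ± 3.18 FPKM (log2 fold change 0.86, SE 0.18, adjusted p = 0.023). The call was lost in 5 of the 6 fits that left out a library, with a highest adjusted p of 0.0799, and its log2 fold change stayed between 0.67 and 1.01.

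IGFBP4 (ENSG00000141753, chromosome 17, bases 40443450 to 40457725, plus strand) is an inhibitory binding protein and the best known substrate of PAPPA. Its level was 8.71, 7.88 and 6.34 FPKM in Control against 13.6, 9.48 and 13.0 FPKM in OX-LDL. The groups did not overlap, although OX-LDL 2 lay nearer to the highest Control library than to the other OX-LDL libraries. The mean went from 7.64 ± 1.20 to 12.04 ± 2.24 FPKM (log2 fold change 0.69, SE 0.18, adjusted p = 0.047). Its adjusted p was the highest of the 4 members called, and the call was lost in 5 of the 6 fits that left out a library, where the log2 fold change ran from 0.57 to 0.83 and the adjusted p from 0.0218 to 0.137. Of those fits, only the one without OX-LDL 2 called either IGFBP4 or IGFBP6.

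The remaining IGFBPs were at or under the limit of detection, which was 12 counts per library, or about 3 read pairs. IGFBP1 (ENSG00000146678, chromosome 7, bases 45888360 to 45893660), a binding protein of liver known to be repressed by insulin, had 13, 0 and 0 counts in Control against 10, 0 and 8 in OX-LDL. A level of about 0.0841 FPKM would give 12 counts, so a difference under that level was not detectable at this depth. IGFBP2 (ENSG00000115457, chromosome 2, bases 216632828 to 216664436) had at most 4 counts in any library. IGFBP5 (ENSG00000115461, chromosome 2, bases 216672105 to 216695549) had 0 counts in all 6. IGFBP1 and IGFBP3 are neighbours with 18584 bases between them, yet only IGFBP3 was expressed beyond the limit of detection in both groups. The neighbours IGFBP2 and IGFBP5, with 7668 bases between them, were both undetected.

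Summed over IGFBP1 to IGFBP6, the level per library was 23.8, 21.1 and 21.9 FPKM in Control against 52.1, 33.3 and 47.4 FPKM in OX-LDL. IGFBP3, IGFBP4 and IGFBP6 made up nearly all of it. The share of IGFBP3 in the sum was 32.3%, 27.4% and 38.9% in Control and 42.2%, 41.0% and 46.4% in OX-LDL, so that the groups did not overlap. The share of IGFBP4 was 36.6%, 37.4% and 28.9% in Control and 26.2%, 28.5% and 27.4% in OX-LDL. That of IGFBP6 was 30.7%, 35.2% and 32.3% against 31.5%, 30.5% and 26.0%, with overlap between the groups. These shares are a description and were not tested.

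**Figure D2:**
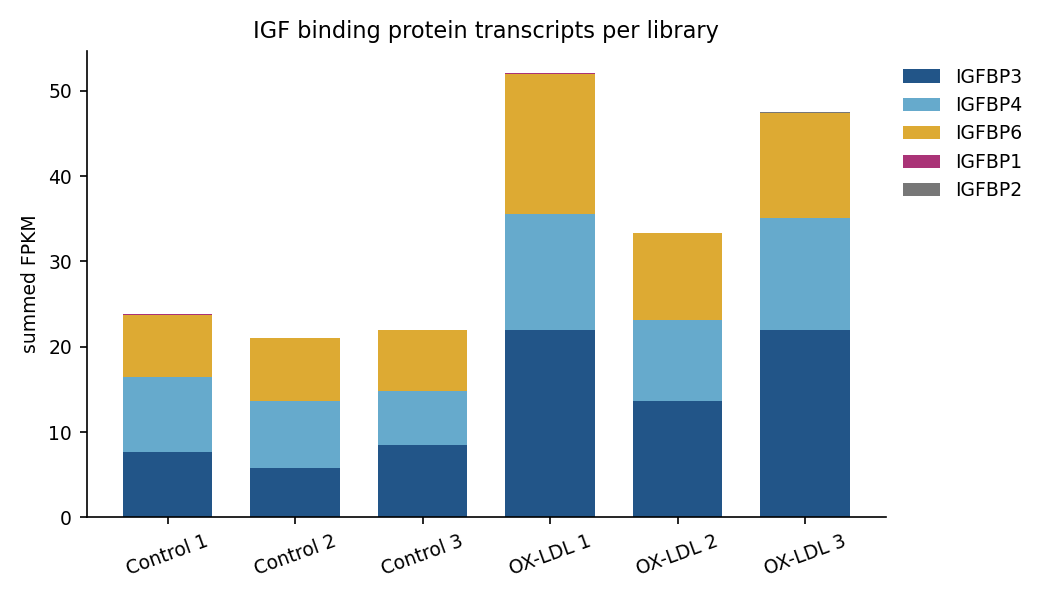
Stacked FPKM of the IGFBPs in each of the 6 libraries, with 1 bar per library and 1 colour per gene. The Control bars reach 21.1 to 23.8 FPKM and the OX-LDL bars 33.3 to 52.1 FPKM, with IGFBP3 the largest part of every OX-LDL bar.

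IGF2R (ENSG00000197081, chromosome 6, bases 159969099 to 160111504, plus strand) was the member with the highest level. It stood at 45.1, 48.6 and 44.5 FPKM in Control and at 33.2, 33.7 and 34.9 FPKM in OX-LDL. The groups were far apart relative to their spread, with means of 46.1 ± 2.23 and 33.9 ± 0.825 FPKM. The log2 fold change was -0.41 (SE 0.06, adjusted p = 0.0085), with a 95% interval from -0.55 to -0.26, and the gene was called whichever library was left out. The gene AL353625 lies inside IGF2R on the same strand and had 140 to 475 counts, against 43779 to 77358 for IGF2R.

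IGF1R (ENSG00000140443, chromosome 15, bases 98648539 to 98964530, plus strand) did not pass the test. Its level was 8.05, 7.17 and 6.97 FPKM in Control against 8.28, 8.47 and 8.24 FPKM in OX-LDL. All OX-LDL libraries lay above the Control libraries, by a narrow margin over Control 1. The log2 fold change was 0.20 (SE 0.08, adjusted p = 0.15), with a 95% interval from 0.01 to 0.40.

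IRS1 (ENSG00000169047, chromosome 2, bases 226731317 to 226799759, minus strand) stood at 3.87, 4.32 and 4.38 FPKM in Control and at 3.48, 4.46 and 3.68 FPKM in OX-LDL. The groups overlapped. Its log2 fold change was -0.08 (SE 0.11, adjusted p = 0.69), with a 95% interval from -0.35 to 0.19. IRS2 (ENSG00000185950, chromosome 13, bases 109752695 to 109786583, minus strand), the other main adaptor of the insulin and IGF1 receptors, stood at 24.6, 27.0 and 18.9 FPKM in Control and at 18.1, 16.4 and 17.8 FPKM in OX-LDL. Control 3 lay close to the OX-LDL libraries, and the groups did not overlap. The log2 fold change was -0.40 (SE 0.13, adjusted p = 0.092), with a 95% interval from -0.71 to -0.08. Without Control 3 it was -0.53 and passed the test, with an adjusted p of 0.0197.

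**Figure D3:**
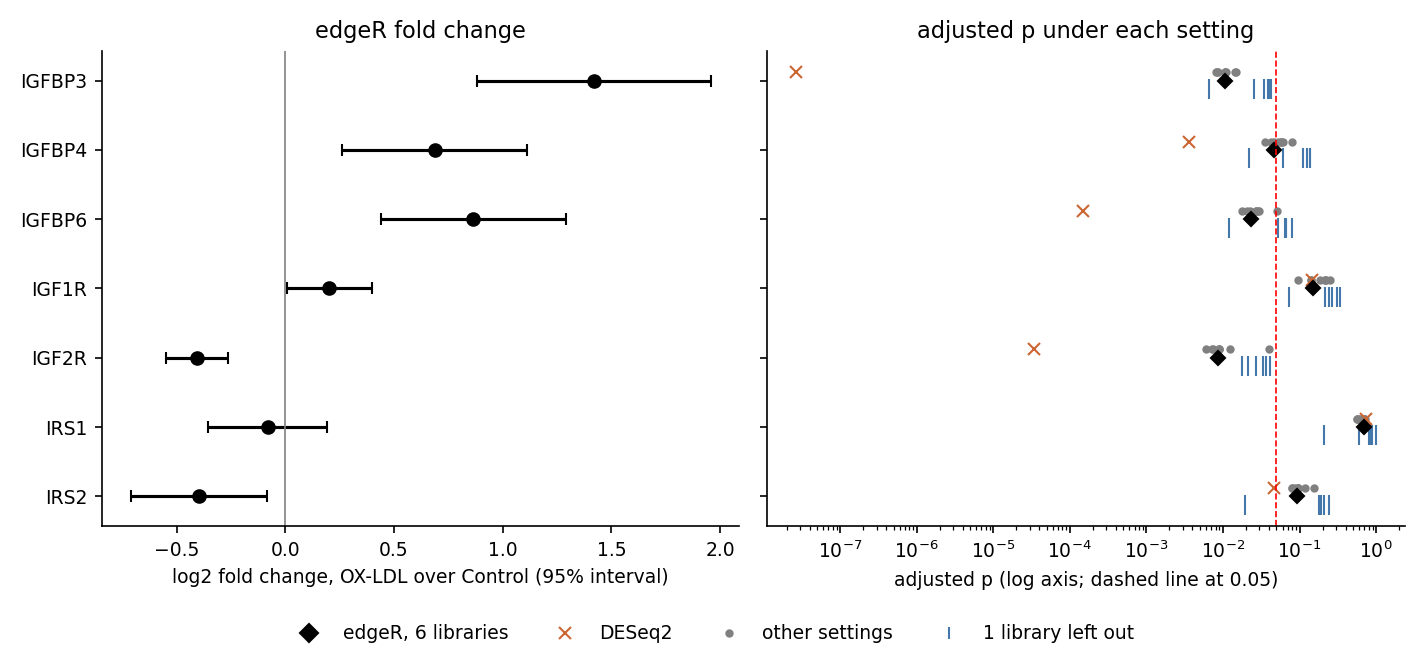
The left panel gives the edgeR log2 fold change of OX-LDL over Control for the 7 tested members with its 95% interval, and the right panel gives each member's adjusted p on a log axis with all 6 libraries (diamonds), by DESeq2 (crosses), under the other settings (grey points) and with 1 library left out (blue ticks), with a dashed line at 0.05. All marks of IGFBP3 and IGF2R lie left of the dashed line, those of IGFBP4, IGFBP6 and IRS2 fall on both sides of it, and those of IGF1R and IRS1 lie right of it.

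Per length, the order of the members differed between the groups. In Control, IGF2R was highest and IRS2 next, IGFBP3, IGFBP4, IGFBP6 and IGF1R overlapped one another, and IRS1 was lowest. In OX-LDL, IGF2R was again highest, the ranges of IGFBP3, IRS2 and IGFBP6 overlapped, that of IGFBP4 overlapped with IGFBP6 only, and IGF1R and IRS1 followed. Over all libraries IGF2R, with a mean of 39.99 FPKM, stood above 95.8% of the genes tested and IRS1, with 4.03 FPKM, above 61.6%. In 6 of the 7 tested members the groups did not overlap, 4 with OX-LDL higher and 2 with OX-LDL lower, whereas this was so for 37.2% of all genes tested. In bulk libraries, a change in RNA per cell and a change in the share of cells that express a gene cannot be told apart.

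The ligands were near or under the limit of detection. IGF1 had 30, 0 and 27 counts in Control against 23, 29 and 6 in OX-LDL. IGF2 (ENSG00000167244) had 4, 0 and 0 counts in Control against 17, 8 and 11 in OX-LDL, and a second row named IGF2 had none. INSR, the insulin receptor, which pairs with IGF1R in hybrid receptors, was expressed at 1.502 ± 0.080 FPKM in Control against 1.49 ± 0.215 FPKM in OX-LDL, with a log2 fold change of 0.02 (adjusted p = 0.95). IGFBP7, a related protein with low affinity for IGFs, stood at 44.6 ± 3.32 and 50.0 ± 9.01 FPKM (log2 fold change 0.20, adjusted p = 0.40). IGFBPL1, another relative, had 6 to 25 counts in Control and 34 to 42 in OX-LDL and was not tested. Of the 8 ligands and other receptors or relatives, 2 were tested and none was called by edgeR, DESeq2 or limma, nor had an unadjusted p under 0.05.

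Genes that act on the IGFBPs moved in both directions. Of 8 proteases and their inhibitors, 5 were tested, 1 was called higher and 2 lower, and the median log2 fold change was -0.47. For all genes tested these values were 7.91% higher, 7.42% lower and a median of -0.0043. PAPPA, which cuts IGFBP4, stood at 7.47, 6.37 and 5.72 FPKM in Control and at 3.08, 3.64 and 3.61 FPKM in OX-LDL. It fell by 0.89 on the log2 scale (SE 0.13, adjusted p = 0.0081). STC2, a secreted inhibitor of PAPPA, fell as well, from 24.6, 26.6 and 29.4 FPKM to 13.4, 13.5 and 14.02 FPKM (log2 fold change -0.94, SE 0.08, adjusted p = 0.0018). ADAM12, a metalloprotease known to cut IGFBP3, rose from 0.132, 0.119 and 0.253 FPKM to 1.10, 0.988 and 1.11 FPKM. Its log2 fold change was 2.69 (SE 0.31, adjusted p = 0.0043), or 6.44-fold. All 3 were called whichever library was left out. PAPPA2, which cuts IGFBP3 and IGFBP5, had 86, 151 and 96 counts in Control against 0, 0 and 7 in OX-LDL. PAPPA2 was under the level set for the main test, and its mean Control level was 8.99 times the level of 12 counts in OX-LDL. In the edgeR fit without a minimum level it was called lower (adjusted p = 0.022). Neither HTRA1, with a log2 fold change of -0.20, nor the lysosomal protease CTSD, with -0.47, passed the test.

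**Figure D4:**
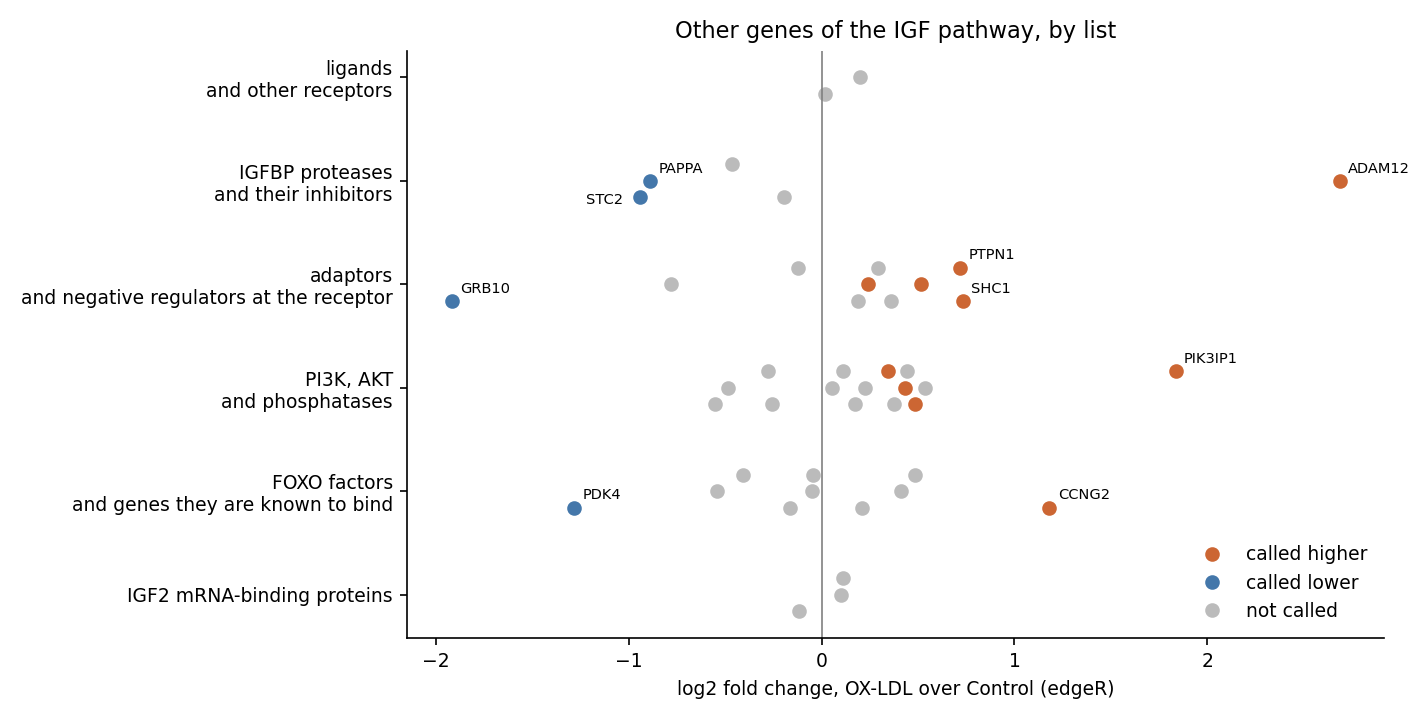
Log2 fold change of OX-LDL over Control for the tested genes of the 6 pathway lists, 1 row per list, with called genes coloured by direction and grey for those not called. The genes furthest from 0 are ADAM12 and PIK3IP1 to the right, at 2.69 and 1.84, and GRB10 and PDK4 to the left, at -1.92 and -1.28.

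Of 12 adaptors and negative regulators at the receptor, 10 were tested, 4 were called higher and 1 lower, and the median log2 fold change was 0.27. The shares called over all genes tested were 7.91% higher and 7.42% lower. GRB10, an adaptor that binds IGF1R and the insulin receptor and restrains their signal, stood at 4.41, 4.17 and 4.49 FPKM in Control and at 1.01, 1.02 and 1.34 FPKM in OX-LDL. Its level in OX-LDL was 0.265 of that in Control, with a log2 fold change of -1.92 (SE 0.14, adjusted p = 0.0012). PTPN1, the phosphatase PTP1B that dephosphorylates the insulin receptor, rose from 28.6, 27.6 and 26.9 FPKM to 46.7, 40.7 and 46.4 FPKM (log2 fold change 0.72, SE 0.08, adjusted p = 0.0036). Both were called whichever library was left out. SHC1, an adaptor that leads to RAS, stood at 17.9, 13.5 and 20.2 FPKM against 24.3, 29.2 and 30.2 FPKM and was called with a log2 fold change of 0.73 (adjusted p = 0.031). SOCS3, an inhibitor induced by cytokines that also binds the insulin receptor, stood at 5.52, 4.92 and 5.01 FPKM against 7.11, 7.59 and 6.90 FPKM and was called with a log2 fold change of 0.51 (adjusted p = 0.022). SHC1 kept its call in 1 and SOCS3 in 2 of the 6 fits that left out a library. SOS1 was the other gene called higher, and it lost the call in all 6.

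**Figure D5:**
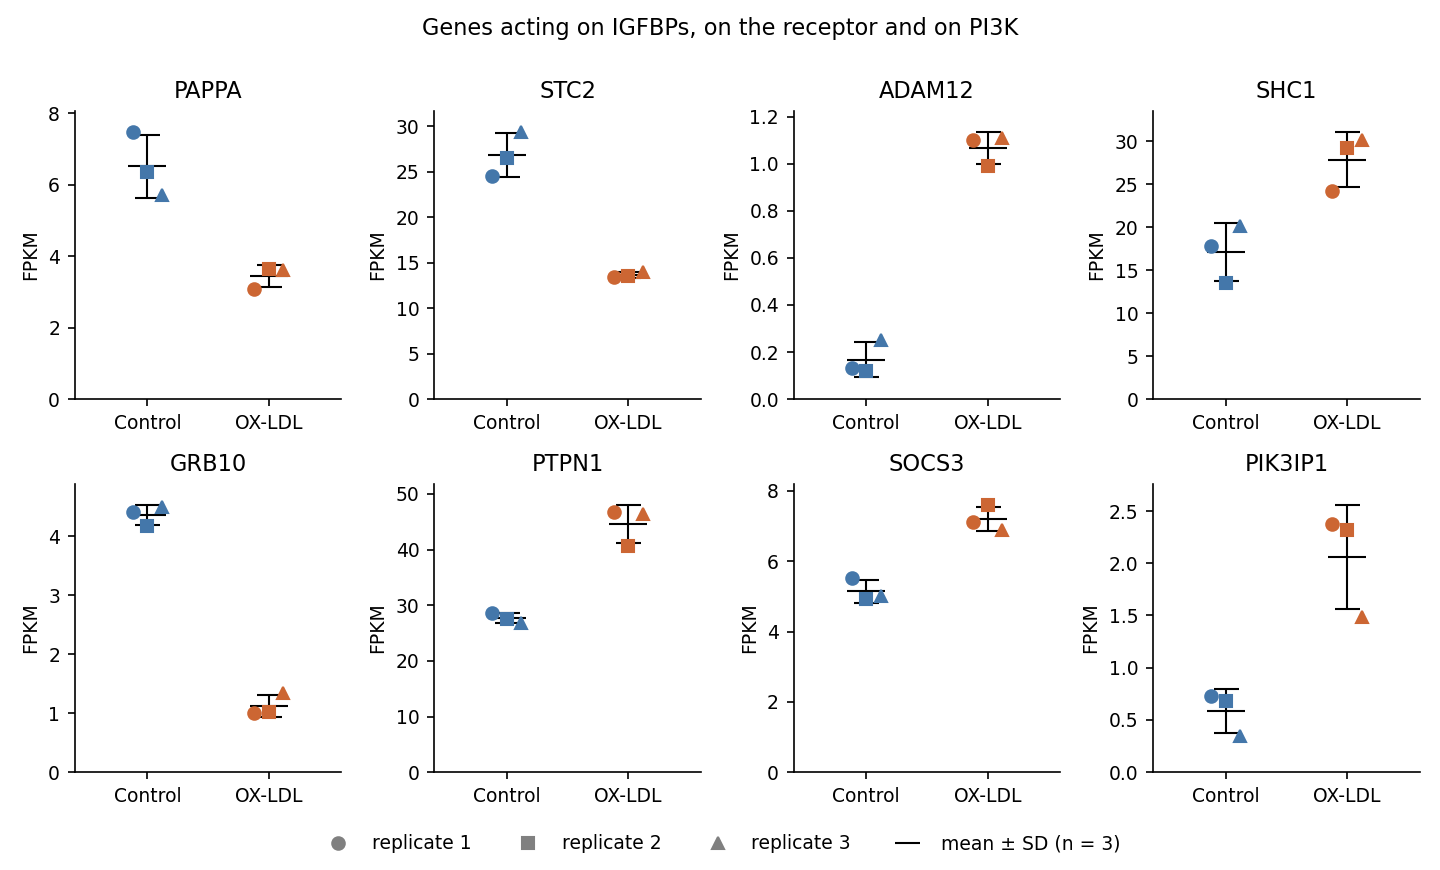
FPKM in each library of 8 genes that act on IGFBPs, on the receptor or on PI3K, with Control in blue, OX-LDL in orange, marker shape for the replicate and bars for the mean ± SD (n = 3). In all 8 panels the groups do not overlap, with OX-LDL below Control for PAPPA, STC2 and GRB10 and above it for the others. The 8 genes were shown from among those called in these data, and the groups did not overlap for 37.2% of all genes tested.

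Of 16 genes of PI3K, AKT and their phosphatases, 15 were tested, 4 were called higher and none lower. Among all genes tested, 7.91% were called higher and 7.42% lower. The list's median log2 fold change was 0.23, against -0.0043 over all genes tested. PIK3IP1, a membrane protein that binds and restrains PI3K, rose from 0.725, 0.682 and 0.343 FPKM to 2.37, 2.31 and 1.48 FPKM. Its log2 fold change was 1.84 (SE 0.33, adjusted p = 0.015), and it kept the call in 4 of the 6 fits that left out a library. The kinase AKT1 (log2 fold change 0.34, adjusted p = 0.034), the PI3K subunit PIK3CD (0.48, adjusted p = 0.037) and the lipid phosphatase INPPL1 (0.43, adjusted p = 0.041) kept theirs in 1 of 6 each. DESeq2 called 7 genes of this list and limma, with a pseudocount of 0.1, called 1. Over all 19510 genes, DESeq2 called 4430 and limma 2914, against 2991 by edgeR. With a minimum of 1 FPKM, edgeR called 5 genes of the list, beside 3152 of 12259 genes.

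AKT keeps the FOXO factors out of the nucleus, and the FOXO genes and genes they are known to bind were read as a list. Of 16, 10 were tested, 1 was called higher and 1 lower, near the 7.91% and 7.42% of all genes tested, and the median log2 fold change was -0.05. The 2 genes called are given as single genes. CCNG2, a cyclin linked to cell cycle arrest, rose from 2.95, 3.39 and 3.03 FPKM to 6.49, 9.09 and 5.21 FPKM (log2 fold change 1.18, SE 0.20, adjusted p = 0.012). PDK4, a kinase that restrains pyruvate dehydrogenase, fell from 2.97, 2.80 and 2.70 FPKM to 0.907, 1.23 and 1.25 FPKM (log2 fold change -1.28, SE 0.16, adjusted p = 0.0055). Both were called whichever library was left out. None of the 3 IGF2 mRNA-binding proteins, which bind the IGF2 transcript, was called by edgeR, DESeq2 or limma, and none had an unadjusted p under 0.05. Over the 63 pathway genes of the 6 lists, 45 were tested, 10 were called higher and 4 lower, and the median log2 fold change was 0.11. Over all genes tested the shares were 7.91% and 7.42%, so the number called lower was near that background, which takes in weakly expressed genes. The lists were chosen with earlier results of these data known, so the counts called in them are a description and not a test.

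The libraries held 62561347 to 76797607 counts, at about 4 counts per read pair as estimated from the counts themselves. Markers of tubular epithelium were expressed, with 10 of the 11 that had 1 row detected and a summed level of 188.1 to 218.6 FPKM in Control and 232.3 to 261.1 FPKM in OX-LDL. Of these, 3 were called higher and 1 lower. The proximal markers LRP2, at 0 counts in every library, and ANPEP, AQP1 and CUBN, at most 0.142 FPKM, were absent or near it, and CDH1 was at most 0.144 FPKM. Fibroblast markers summed to 10.1 to 11.99 FPKM in Control and 8.75 to 14.1 FPKM in OX-LDL, with 3 of 6 detected, LUM the source of nearly all of it and DCN at 0 counts. Endothelial markers, with 1 of 4 detected, were at most 0.0957 FPKM in sum. Leukocyte markers, with 2 of 5 detected, summed to 3.11 to 7.74 FPKM in Control and 9.16 to 13.95 FPKM in OX-LDL, nearly all of it CD68, a lysosomal protein that is not particular to leukocytes, while PTPRC had at most 8 counts. The part of these markers in the values of the IGF genes was not tested.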

How the data were processed

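Poly(A) RNA-seq covered 6 HK-2 libraries, grouped by their labels as 3 Control and 3 OX-LDL. The authors deposited 1 table of 58825 genes with estimated counts per gene, which are whole numbers not scaled for library size, and with FPKM values, in which a count of 0 is listed at 0.0001 FPKM. The submitters' processing notes name cutadapt 1.9, HISAT2 2.0.4, StringTie 1.3.4d, edgeR, DESeq2 and the build GRCh38. The annotation release and the strand setting are not given in the sources used here, so reads of overlapping genes could be shared. No column was left unmatched to a library (0 columns).

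Genes were more frequent at 4, 8 and 12 counts than at neighbouring counts (3.26, 2.95 and 2.13 times), which was read as about 4 counts per read pair. Library totals were 62561347 to 76797607 counts. The limit of detection covers counting error only, whereas the intervals of fold changes come from the edgeR fit and include the spread between libraries. Within groups, the chi-square per gene between libraries was 14.3 to 24.8, so none had been deposited more than once. The study's methods describe its cell experiments as performed independently, and neither they nor the labels say which culture each RNA-seq library came from.

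The test was edgeR 4.0.16 (R 4.3.3) with TMM, glmQLFit and glmQLFTest and the group as the single factor. It took in 19510 genes whose mean reached 0.1 FPKM, with Benjamini-Hochberg adjustment over all of them. The step was tested on simulated data. Alternatives were DESeq2 1.42.0, limma 3.58.1 on log2(FPKM + 0.1) and log2(FPKM + 1), other scalings and minimum levels, a replicate block, and each library left out. An exact permutation test of 3 against 3 cannot go below a two-sided p of 0.1 and was not used. The members and gene lists were chosen with earlier results of these data known. Named were all members, up to 4 called genes per list by lowest p, and any detected ligand or receptor of its list. PAPPA2, CTSD, HTRA1 and SOS1 were named after their values were seen, as were the genes given under other observations. Coordinates are those of the deposited table, and promoter sequences are from RefSeq (GRCh38.p14), where 9 of the 10 members matched.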

Additional observations from a re-analysis of the deposited data

How the results depend on the processing

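IGFBP3 and IGF2R were called under every alternative run, and none of the 7 tested members changed direction. IGFBP4 was close to the threshold and was not called when scaled by library totals only (log2 fold change 0.66), in limma with a pseudocount of 0.1 (0.64) or 1 (0.59), or without a minimum level (0.68). IRS2 was called by DESeq2 (-0.39), which made 2 members called lower. The PI3K, AKT and phosphatase list had 7 calls with DESeq2 and 1 with limma at either pseudocount or without a minimum level. The FOXO list had 4 without a minimum level, where more genes are tested. Over all genes, DESeq2 called 4430 of 19510, and limma called 2914 with a pseudocount of 0.1 and 2925 with 1. The fit without a minimum level called 2321 of 31096. The deviations of libraries with the same replicate number correlated at -0.041, -0.0031 and 0.036, so no shared deviation was seen. This cannot settle whether the cultures were paired, which the labels do not say. With a replicate block, 1636 genes were called in place of 2991, 1 member was called higher, IGFBP4 (log2 fold change 0.68) and IGFBP6 (0.84) were not called, and the adaptor list had 2 calls and the PI3K list 1. Leaving out each library in turn gave 1161 to 2943 genes called, 1 to 3 members called higher and 1 to 2 lower, log2 fold changes of 0.57 to 0.83 for IGFBP4, 0.67 to 1.01 for IGFBP6 and -0.53 to -0.30 for IRS2, 2 to 3 calls in the adaptor list and 0 to 5 in the PI3K list. The cause of these changes was not tested. Depth limits IGFBP1, IGFBP2, IGFBP5, IGF1 and IGF2, which were not tested.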

Other observations

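Some pathway genes were under the level set for the main test and are given as counts. KLF15, a transcription factor induced by fasting, had 29, 36 and 23 counts in Control and 0 in each OX-LDL library. Its mean Control level was 2.37 times the level of 12 counts in OX-LDL. SESN3, a stress-induced regulator of mTORC1, had 30, 39 and 30 counts in Control against 96, 138 and 137 in OX-LDL. INPP5D, a lipid phosphatase best known from blood cells, had 4, 8 and 8 counts in Control against 49, 17 and 66 in OX-LDL. Its mean OX-LDL level was 3.78 times the level of 12 counts in Control, with OX-LDL 2 close to that limit. In the edgeR fit without a minimum level, KLF15 (adjusted p = 0.016) was called lower and SESN3 (0.011) higher, and INPP5D (0.055) was not called.

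Of the 23 genes that the deposited table annotates with insulin-like growth factor binding, a term chosen after values had been seen, 13 were tested. Of these, 4 were called higher and 1 lower, beside 7.91% and 7.42% of all genes tested. The calls included the 4 called members, so the term added 1 called gene. CCN5, a secreted matricellular protein, went from 0.274, 0.332 and 0.463 FPKM in Control to 0.903, 0.615 and 0.798 FPKM in OX-LDL (log2 fold change 1.14, adjusted p = 0.032), a call kept in 2 of the 6 fits that left out a library. OX-LDL 2 was its lowest OX-LDL library, as it was for IGFBP3, IGFBP4 and IGFBP6. For CCNG2, PIK3CD and IGFBP7 the same library was the highest of its group, at 9.09, 4.33 and 60.3 FPKM. A second annotated term, insulin-like growth factor receptor signaling pathway, was read as well. It held 14 genes, of which 12 were tested. AKT1 was called higher, and GRB10 and IGF2R were called lower, all 3 of them given above. The tested genes of this term had log2 fold changes with a median of 0.01.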
